A study of Mus musculus with 4 samples.

Results

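The S100 genes encode small, mostly calcium-binding proteins, and 10 of them were followed in the cortex of WT and *P4htm*-/- mice after stroke. *S100a1*, *S100a4*, *S100a6*, *S100a8*, *S100a9*, *S100a10*, *S100a11*, *S100a13*, *S100a16* and *S100b* were chosen from the family with their values on these same arrays already known, so every difference given for them is a description. All probe sets, groups of probes summarized to 1 value, were taken that name 1 member alone, though some can bind several transcripts. This gave 14 probe sets for 9 of the 10 genes, out of 18194 genes measured in this way. The only probe set for *S100a11* also names *S100a11-ps* and *Gm12854*, and its values were not used. Mice on the C57BL/6J strain, 3 months old, had the left middle cerebral artery occluded permanently (pMCAO), and 24 h later RNA was taken from the whole cortex of the injured (ipsilateral) and the opposite (contralateral) side. Both sides were taken from WT mice and from *P4htm*-/- mice, which lack the transmembrane prolyl 4-hydroxylase P4H-TM in all tissues, so there were 4 conditions. For each condition the RNA of 4 mice was pooled and measured on 1 Affymetrix Mouse Genome 430 2.0 array. All mice had the occlusion, and the contralateral cortex served as control in place of unoperated animals.

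S100 proteins carry a pair of EF-hand motifs, loops that bind calcium in most but not all members, and mostly work as dimers. Most such dimers change shape on binding calcium and then grip a target protein. Some act inside the cell, on annexins, the cytoskeleton or membrane proteins. Others are released from damaged or activated cells and are sensed by receptors such as RAGE and TLR4, and they are therefore called alarmins. In the brain S100B is best known as an astrocyte protein and as a marker of brain injury in blood, while S100A8 and S100A9, which together form calprotectin, are abundant in neutrophils and monocytes.

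Expression values are on the log2 scale after RMA, a method that corrects background, equalizes the distribution of the arrays and summarizes the probes of a set. A value above 4.80, the 95th percentile of 80 probe sets for receptors of smell, pheromones and bitter taste, was taken as above background. Genes are called higher or lower from a measured difference of 1.5-fold, 0.585 on this scale, with at least 1 of both arrays compared above background. If only 1 of both was, the text gives the bound that results from placing the other at the background limit. With 1 array for each condition there is no replicate check, and no test was made. The receptor probe sets differed between arrays with an SD of 0.176 to 0.207, which gives the technical scatter of dim probe sets but not the variation between mice. The arrays had medians of 5.53 to 5.55 and 58.9% to 59.5% of probe sets above background. *P4htm* itself read 10.03 and 10.02 on the WT arrays, against 8.27 and 8.23 on the *P4htm*-/- arrays, contralateral before ipsilateral, and its probes were not placed relative to the deletion.

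In RefSeq, on the mouse assembly GRCm38.p6, 9 of the 10 genes lie on chromosome 3 and *S100b* lies on chromosome 10. From *S100a1* to *S100a9* the chromosome carries 12 protein-coding genes in a row, all 12 of the S100 family. *S100a11* and *S100a10* follow after 56 other coding genes and are next to each other. *S100a8* and *S100a9*, whose values had the same order over the arrays, are also direct neighbours, and *S100a4* and *S100a6* have only *S100a5* between them. The 250 bases before the annotated start of these 4 genes are shown for comparison, since they are the measured members with the largest range over the arrays. They are written 5′ to 3′ on the strand of the gene, and capitals mark a match to 1 of 7 motifs that were searched on both strands.
S100a8, chr3:90668821-90669070, plus strand: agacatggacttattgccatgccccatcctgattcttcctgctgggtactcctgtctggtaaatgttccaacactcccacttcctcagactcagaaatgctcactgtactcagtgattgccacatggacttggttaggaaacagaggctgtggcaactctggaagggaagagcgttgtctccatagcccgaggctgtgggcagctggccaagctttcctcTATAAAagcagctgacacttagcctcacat
S100a9, chr3:90695722-90695971, minus strand: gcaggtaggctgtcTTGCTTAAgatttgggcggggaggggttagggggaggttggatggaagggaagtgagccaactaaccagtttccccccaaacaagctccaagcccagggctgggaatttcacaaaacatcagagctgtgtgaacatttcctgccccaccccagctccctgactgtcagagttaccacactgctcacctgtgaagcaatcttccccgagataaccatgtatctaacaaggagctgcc
S100a4, chr3:90603520-90603769, plus strand: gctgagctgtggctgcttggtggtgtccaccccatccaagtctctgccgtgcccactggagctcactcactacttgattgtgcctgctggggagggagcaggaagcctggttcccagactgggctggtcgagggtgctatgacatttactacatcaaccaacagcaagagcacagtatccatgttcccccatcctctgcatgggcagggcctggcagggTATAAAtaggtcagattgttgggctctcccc
S100a6, chr3:90612644-90612893, plus strand: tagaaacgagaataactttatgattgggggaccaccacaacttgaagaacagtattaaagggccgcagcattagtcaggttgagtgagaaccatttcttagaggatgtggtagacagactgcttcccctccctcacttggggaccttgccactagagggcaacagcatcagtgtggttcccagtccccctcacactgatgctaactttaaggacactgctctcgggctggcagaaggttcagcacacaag
The capitals in *S100a8* and *S100a4* are TATAAA, the core of the TATA box, which begins at position -30 from the start in *S100a8* and -31 in *S100a4*. This motif was added after the sequences had been seen, and 12.4% of 32817 windows of the same length from all promoters of the table hold it. The capitals in *S100a9* are a match to TTGCNNAA, a form of the site of C/EBP factors, at position -236, which 9.57% of all windows hold. Neither of the 2 forms of the core of the hypoxia response element, ACGTG and GCGTG, nor the AP-1 site TGANTCA, the STAT site TTCNNNGAA or the NF-kappaB site GGGNNTTCC was found in these 4 windows. Among all windows these 5 are held by 16.6%, 28.1%, 6.75%, 7.01% and 4.97%, in the same order. Among the other members, GCGTG was found before *S100a13* and TGANTCA before 1 of both starts of *S100a16*. The window of *S100a11*, which has no expression value here, held ACGTG and TGANTCA. The windows of *S100a1* and *S100a13*, which are read in opposite directions from neighbouring starts, share 104 bases. A match of letters does not show that a factor binds there.

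*S100a4*, *S100a6*, *S100a8* and *S100a9* were higher on the injured side in both genotypes, and *S100a10* and *S100a16* in WT mice. In WT mice 6 of the 9 measured genes were higher on the ipsilateral side and 0 were lower, while among all 13291 genes with a detected value the shares were 2.41% and 0.444%. In *P4htm*-/- mice 4 of the 9 were higher and 0 were lower, against 1.53% and 0.166% of 13264 genes. The median of the 9 genes was 0.94 in WT and 0.36 in *P4htm*-/- cortex, and that of all detected genes was -0.02 in both. These counts describe genes picked with the values known and are not evidence on the family as such. In pooled whole cortex, more cells of a type and more RNA per cell cannot be told apart.

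**Figure D1:**
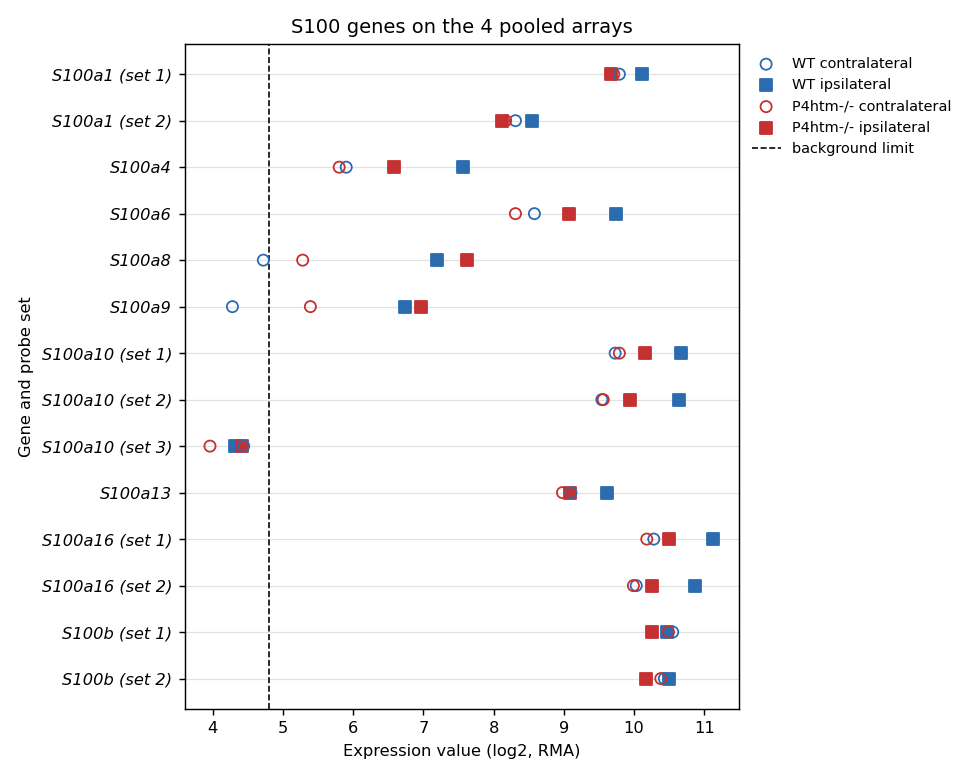
Expression values (log2, RMA, horizontal axis) of the 14 probe sets of the 9 measured S100 genes, with WT in blue, *P4htm*-/- in red, the contralateral side as open circles and the ipsilateral side as filled squares, each symbol being 1 pooled array. *S100a8* and *S100a9* are the only 2 genes whose highest value is in *P4htm*-/- ipsilateral cortex, at 7.62 and 6.96, and whose WT contralateral value lies below the dashed background limit of 4.80. The third probe set of *S100a10* lies below it on all 4 arrays.

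The calprotectin genes had the largest differences between the sides of the brain. *S100a8* (probe set 1419394_s_at) read 4.72 in WT contralateral, 7.20 in WT ipsilateral, 5.28 in *P4htm*-/- contralateral and 7.62 in *P4htm*-/- ipsilateral cortex. The WT contralateral value was not above background, and both ipsilateral values stood well apart from both contralateral ones. The gene was higher on the ipsilateral side by at least 2.40 in WT, or at least 5.28-fold, and by 2.34, or 5.06-fold, in *P4htm*-/- mice.

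*S100a9* (1448756_at), the partner of *S100a8*, read 4.28, 6.74, 5.39 and 6.96 in the same order of conditions. Again only the WT contralateral value was not above background, and the order of the 4 conditions was the same as for *S100a8*. It was also higher in ipsilateral cortex, by at least 1.94 in WT mice and 1.57 in *P4htm*-/- mice. *S100a9* was also the only S100 gene past 1.5-fold on the uninjured side, where it was higher by at least 0.59 in *P4htm*-/- than in WT mice. In that comparison 1 of the 9 genes was higher and 0 were lower, against 0.228% and 0.159% of 13175 genes. The measured difference was 1.11 for *S100a9*, and for *S100a8* it was 0.56, short of 1.5-fold. In ipsilateral cortex the *P4htm*-/- values were 0.42 and 0.22 above those of WT, which is below 1.5-fold for both.

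Genes that mark neutrophils were mostly too dim to be read beside this pair. Of 16 measured genes of a list of 19, without *S100a8* and *S100a9*, 8 were above background on any array, and *Elane*, *Mpo*, *Camp*, *Ctsg*, *Mmp8* and *Cxcr2* were not. The mean of the 8 was 5.13 in WT contralateral, 5.50 in WT ipsilateral, 5.12 in *P4htm*-/- contralateral and 5.62 in *P4htm*-/- ipsilateral cortex. These means lean on *Lcn2*, a lipocalin of neutrophils and of reactive astrocytes, which read 4.89, 6.54, 4.11 and 6.72 in the same order, the third below background. Without it, a choice made after the values were seen, the mean of the other 7 was 5.17, 5.35, 5.27 and 5.47. *Ngp*, a granule protein of neutrophils, was above background only in *P4htm*-/- ipsilateral cortex, at 4.90. There it was higher than in WT by a measured 0.65, past 1.5-fold, but its bound of at least 0.10 is short of it. *Hbb-b2*, a hemoglobin gene and the only blood marker above background, read 5.06, 6.14, 6.04 and 6.26, lowest in WT contralateral cortex. Against that array it was higher by 0.98 in *P4htm*-/- contralateral and by 1.08 in WT ipsilateral cortex. Their part in the *S100a9* difference was not tested.

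*S100a4* and *S100a6*, which encode proteins of motile and dividing cells, were higher on the injured side in both genotypes and lower in *P4htm*-/- than in WT injured cortex. *S100a4* (1424542_at), whose protein binds nonmuscle myosin, read 5.90 in WT contralateral, 7.56 in WT ipsilateral, 5.80 in *P4htm*-/- contralateral and 6.58 in *P4htm*-/- ipsilateral cortex. The contralateral arrays were within 0.10 of each other, and the WT ipsilateral array was the highest of the 4 by 0.98. The difference between the sides was 1.66, or 3.16-fold, in WT and 0.78, or 1.72-fold, in *P4htm*-/- mice.

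*S100a6* (1421375_a_at), calcyclin, read 8.58, 9.74, 8.31 and 9.07 in the same order of conditions. The ipsilateral value was the higher one in both, with a difference of 1.16 in WT and 0.76 in *P4htm*-/- mice. The *P4htm*-/- value was below that of WT on both sides, by a difference of -0.27 in contralateral and of -0.67 in ipsilateral cortex, of which the second was past 1.5-fold.

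*S100a10* and *S100a16* were past 1.5-fold between the sides in WT mice alone, without a test of the difference between genotypes. *S100a10* encodes p11, the partner of annexin A2 at the cell membrane, and has 3 probe sets. The brightest (1456642_x_at) read 9.73, 10.67, 9.79 and 10.15 and the next (1416762_at) 9.54, 10.64, 9.56 and 9.94, in the same order of conditions. Both show 2 nearly equal contralateral values, a higher *P4htm*-/- ipsilateral value and a still higher WT one. The sides differed by 0.94 and 1.10 in WT mice, and by 0.36 and 0.38 in *P4htm*-/- mice. Between genotypes in ipsilateral cortex the first probe set gave -0.52 and the second -0.70, so only the second was past 1.5-fold. The third (1439348_at) read between 3.96 and 4.44, below background on all 4 arrays, and gives no level.

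*S100a16*, a family member with a broad distribution over tissues, was read by a pair of probe sets that gave nearly the same differences. The brighter (1425560_a_at) read 10.28, 11.13, 10.18 and 10.49 in the same order and the other (1447676_x_at) 10.03, 10.87, 9.99 and 10.25. The difference between the sides was 0.85 and 0.84 in WT mice, against 0.31 and 0.26 in *P4htm*-/- mice. In ipsilateral cortex *P4htm*-/- was lower by a difference of -0.64 and -0.62, both past 1.5-fold.

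*S100a13*, *S100a1* and *S100b* were not past 1.5-fold in any of the 4 comparisons. *S100a13*, whose protein takes part in the release of FGF1 and interleukin-1 alpha from cells, was read by 1 probe set (1418704_at) at 9.10, 9.61, 8.98 and 9.09. It differed between the sides by 0.51 in WT and 0.11 in *P4htm*-/- mice, and between genotypes by -0.52 in ipsilateral cortex.

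*S100a1*, best known from heart and skeletal muscle, read 9.79, 10.11, 9.71 and 9.67 with the brighter probe set (1419814_s_at) and 8.31, 8.55, 8.17 and 8.12 with the other (1417421_at). With both, WT ipsilateral cortex was the highest and *P4htm*-/- ipsilateral cortex the lowest of the 4 conditions. The sides differed by 0.32 and 0.24 in WT and by -0.04 and -0.05 in *P4htm*-/- mice, the latter within the scatter of the receptor probe sets. Between genotypes the ipsilateral differences were -0.44 and -0.43.

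*S100b*, best known from astrocytes but not limited to them, stayed within a range of 0.30 and 0.32 over the arrays with its 2 probe sets. The brighter (1434342_at) read 10.55, 10.47, 10.49 and 10.25 and the other (1419383_at) 10.43, 10.49, 10.38 and 10.17. *P4htm*-/- ipsilateral cortex was the lowest of the 4 with both, and the other 3 conditions lay within 0.11 of each other. Markers of astrocytes at rest were similarly even. None of 12 such genes was past 1.5-fold in any comparison, and their mean ran from 11.01 to 11.08 over the arrays. Such a count is common, as at most 2.41% of all detected genes were higher and 0.578% lower in any comparison. *Gfap*, the filament protein of reactive astrocytes, read 8.07, 10.20, 8.14 and 9.97 in the same order of conditions. The median of 15 detected reactive astrocyte markers was 2.13 higher on the ipsilateral side in WT and 1.83 in *P4htm*-/- mice.

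**Figure D2:**
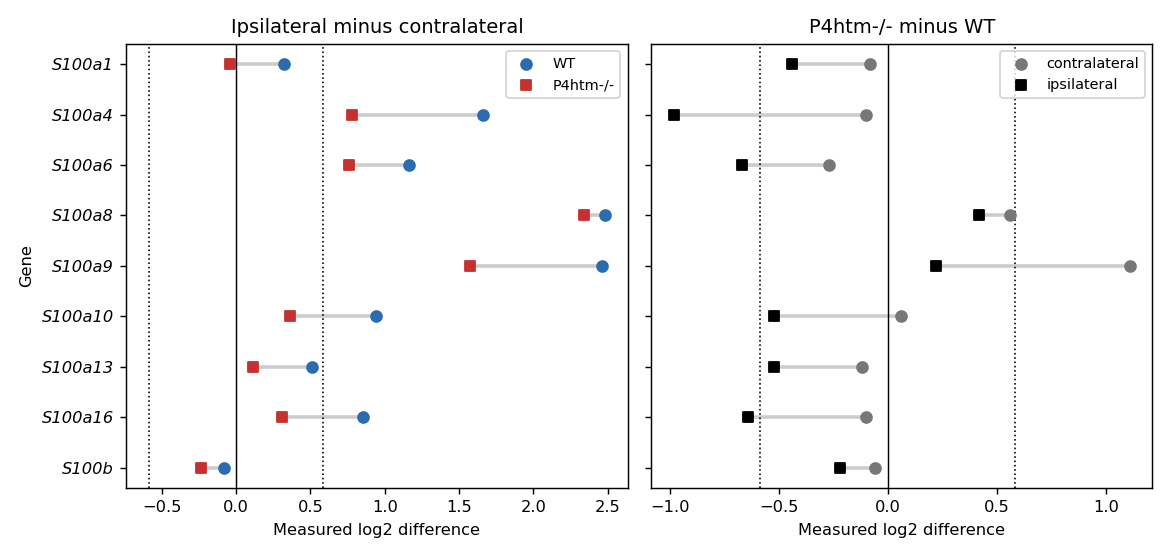
Measured log2 differences (horizontal axis) of the 9 S100 genes, each by its brightest probe set, between ipsilateral and contralateral cortex (left, WT as blue circles and *P4htm*-/- as red squares) and between *P4htm*-/- and WT (right, contralateral as grey circles and ipsilateral as black squares). Dotted lines mark 1.5-fold. In the left plot each red square lies to the left of its blue circle, and in the right plot only *S100a8* and *S100a9* have both points above 0. For these 2 genes the WT contralateral value was not above background, so their WT side differences are at least 2.40 and 1.94.

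Between genotypes, 1 of the S100 genes was past 1.5-fold on the uninjured side and 3 were on the injured side. In contralateral cortex the median of the 9 genes was -0.08, and 8 of them were not past 1.5-fold. In ipsilateral cortex it was -0.52, and *S100a4*, *S100a6* and *S100a16* were lower while 0 of the 9 were higher. Over all 13328 genes detected in that comparison 0.578% were lower and 0.09% were higher, with a median of -0.01. In total 7 of the 9 genes lay below 0 and 2 above. The signed difference of ipsilateral minus contralateral cortex was further down in *P4htm*-/- than in WT mice for all 9 genes by their brightest probe sets, with a median of -0.40 and a value of -0.88 for *S100a4*. For *S100b*, with -0.08 in WT and -0.24 in *P4htm*-/- mice, this means a larger difference below 0. Among 13141 genes detected in both genotypes 47.9% had such a lower signed value and the median was 0.01. A lower value was not particular to the S100 genes. The median side difference of macrophage and phagocyte markers was 1.0 in WT and 0.56 in *P4htm*-/- mice, and that of reactive astrocyte markers 2.13 and 1.83. Neutrophil, microglia and endothelial markers were not lower, with 0.20 and 0.24, 0.14 and 0.17, and 0.16 and 0.21. For *S100a8* and *S100a9* the measured values of -0.14 and -0.89 became -0.06 and -0.37 when the WT contralateral value was set to background. The values of *S100a8* and of *S100b*, -0.14 and -0.16, were smaller in size than the SD of the receptor probe sets. That SD is for a difference between 2 arrays, whereas these values combine all 4.

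Of the markers of other cells in the samples, those of choroid plexus and ependyma included genes lower by 1.5-fold in *P4htm*-/- than in WT ipsilateral cortex. The neutrophil marker *Ngp*, near background, had a measured difference past 1.5-fold in the other direction. Of 15 choroid plexus and ependymal markers, all above background on some array, 2 were lower in *P4htm*-/- ipsilateral cortex. Over all detected genes the share was 0.578%. The mean of the 15 markers was 5.90 in WT contralateral, 6.82 in WT ipsilateral, 5.82 in *P4htm*-/- contralateral and 6.42 in *P4htm*-/- ipsilateral cortex. *Ecrg4*, 1 of the 2, read 6.35, 8.38, 6.48 and 7.22 in this order, and *Ttr*, the transthyretin gene, 8.71, 14.06, 9.03 and 13.62. Of the macrophage, meningeal, oligodendrocyte and neuron markers 0 were past 1.5-fold in this comparison. The mean of 11 macrophage and phagocyte markers above background, of 14 measured, was 6.01, 7.20, 5.98 and 7.05. That of 13 meningeal and fibroblast markers was 7.35, 7.76, 7.29 and 7.66, and that of 15 oligodendrocyte markers 10.11, 10.05, 9.95 and 9.80. The mean of 15 neuron markers was 11.75, 11.59, 11.73 and 11.72, lowest in WT ipsilateral cortex. Their part in the S100 differences was not tested.

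**Figure D3:**
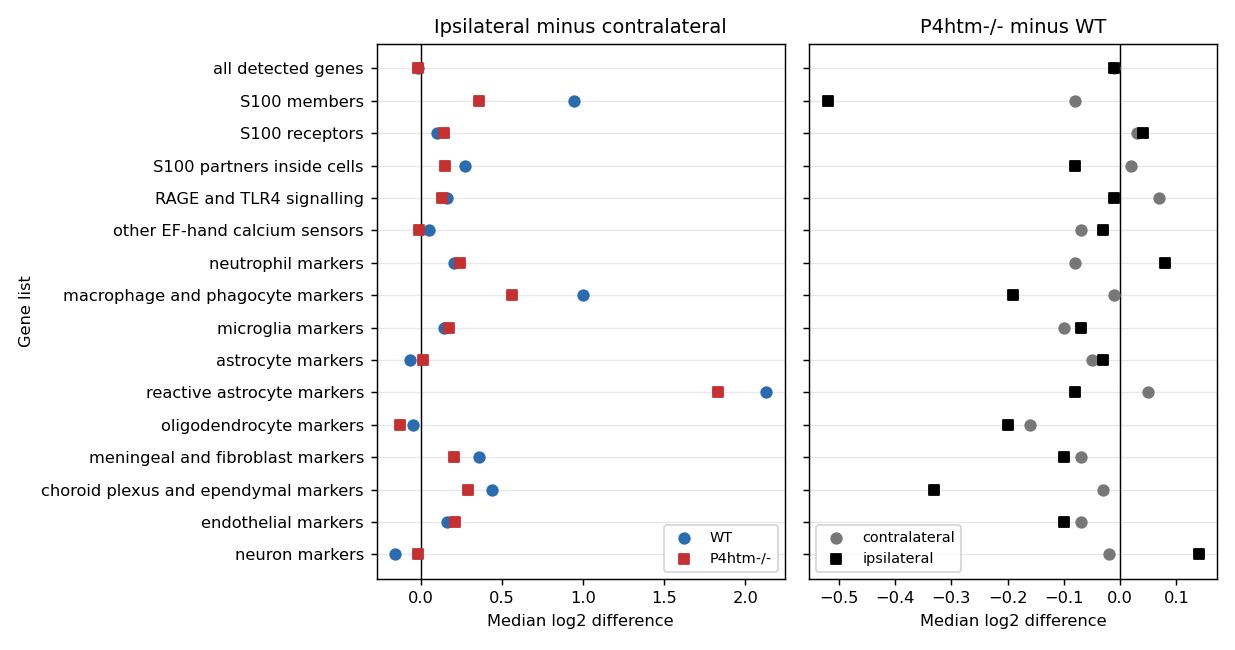
Median log2 difference (horizontal axis) over the detected genes of each list, between ipsilateral and contralateral cortex (left, WT as blue circles, *P4htm*-/- as red squares) and between *P4htm*-/- and WT (right, contralateral as grey circles, ipsilateral as black squares), with all detected genes in the top row. The S100 genes lie at 0.94 and 0.36 in the left plot and at -0.08 and -0.52 in the right one, and choroid plexus and ependymal markers at -0.33 for the ipsilateral side. The S100 genes were picked with their values known.

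Receptors that sense S100 proteins outside the cell showed no common difference, apart from *Cd14*. Of 10 receptor genes 8 were above background, and *Cd14*, a coreceptor of TLR4, was the only 1 past 1.5-fold. It read 6.85 in WT contralateral, 8.46 in WT ipsilateral, 6.74 in *P4htm*-/- contralateral and 8.59 in *P4htm*-/- ipsilateral cortex. *Ager*, which encodes RAGE, read 5.57, 5.69, 5.76 and 5.30, and *Tlr4* read 4.82, 5.0, 4.94 and 5.14, close to background. *Ly96*, the TLR4 partner MD-2, and *Cd36* were not above background. The list median was 0.10 in WT and 0.14 in *P4htm*-/- cortex between the sides, and 0.03 and 0.04 between genotypes. Higher on the ipsilateral side were 2.41% of all detected genes in WT and 1.53% in *P4htm*-/- mice.

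Of the signalling genes and targets downstream of these receptors, 5 of 16 detected genes had measured values past 1.5-fold higher on the ipsilateral side in WT and 1 of 15 in *P4htm*-/- mice, against 2.41% and 1.53% of all detected genes. *Ccl2*, a monocyte chemokine, was higher in both, by at least 1.32 in WT. *Myd88*, *Relb* and *Icam1* differed by 0.77, 0.59 and 0.71 in WT and by 0.26, 0.24 and 0.29 in *P4htm*-/- mice. For *Icam1* the *P4htm*-/- value was above that of WT by 0.49 in contralateral and 0.07 in ipsilateral cortex. *Myd88* was 0.28 above WT in contralateral cortex, with a difference of -0.23 in ipsilateral cortex, and *Relb* gave 0.04 and -0.31. The fifth gene in WT, *Il6*, was above background on 1 array only, with 4.96 in WT ipsilateral cortex, and its bound of at least 0.16 is short of 1.5-fold. Between genotypes 0 were past 1.5-fold on either side. Few of all detected genes were, with 0.228% higher and 0.159% lower in contralateral and 0.09% and 0.578% in ipsilateral cortex.

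Among binding partners inside the cell, *Anxa1* and *Anxa2* stood out. *Anxa2*, whose protein forms a complex with the *S100a10* product, read 7.89, 9.04, 7.75 and 8.52, and was higher on the ipsilateral side by 1.15 in WT and 0.77 in *P4htm*-/- mice. *Anxa1*, an annexin that limits inflammation and binds the *S100a11* protein, read 6.43, 7.58, 6.45 and 7.09. In ipsilateral cortex *P4htm*-/- lay below WT by a difference of -0.52 and -0.49, short of 1.5-fold. They were the only 2 of 11 detected partners past 1.5-fold between the sides, in each genotype. Of all detected genes 2.41% were higher on the ipsilateral side in WT and 1.53% in *P4htm*-/- mice. *Ahnak*, a large scaffold protein bound by the complex of annexin A2 and S100A10, differed between the sides by 0.27 and 0.26, and *Cacybp*, the calcyclin binding protein, by 0.34 and 0.09.

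Other calcium-binding genes with EF hands mostly stayed within 1.5-fold, as did most detected genes. Of 19 detected genes of a list that holds hippocalcin-like proteins, calbindins, parvalbumin and others, 1 was higher and 1 was lower on the ipsilateral side in WT, and 0 were past 1.5-fold in *P4htm*-/- mice. Over all detected genes 2.41% were higher and 0.444% lower in WT, and 1.53% and 0.166% in *P4htm*-/- mice. The list medians were 0.05 and -0.01. The higher gene was *Calml4*, which is also a choroid plexus and ependymal marker and read 4.74, 6.49, 4.29 and 4.82. *Kcnip2*, a subunit of potassium channels, was the lower one. Between genotypes *Calml4* was the only 1 past 1.5-fold, lower in *P4htm*-/- ipsilateral cortex. There 0.578% of all detected genes were lower and 0.09% higher, and in contralateral cortex 0.159% and 0.228%.

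Within the chromosome 3 cluster some S100 genes could not be read. *S100a3* and *S100a5*, which lie near *S100a4*, and *S100a14*, between *S100a13* and *S100a16*, were not above background on any array, with values of 3.51 to 4.40. No further S100 gene or gene of the fused S100 type, which includes the epidermal genes *Hrnr*, *Flg*, *Tchh*, *Tchhl1* and *Rptn*, was above background either, 9 of 14 such genes having a probe set of their own. Of the 5 nearest measured genes on each side of the whole stretch, 7 of 10 were above background and 0 of them were past 1.5-fold in any comparison. Among all detected genes at most 2.41% were higher and 0.578% lower in any comparison, so this count does not set the flanking genes apart. *Chtop*, the nearest measured gene before *S100a1*, read 10.66, 10.38, 10.57 and 10.59.

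**Figure D4:**
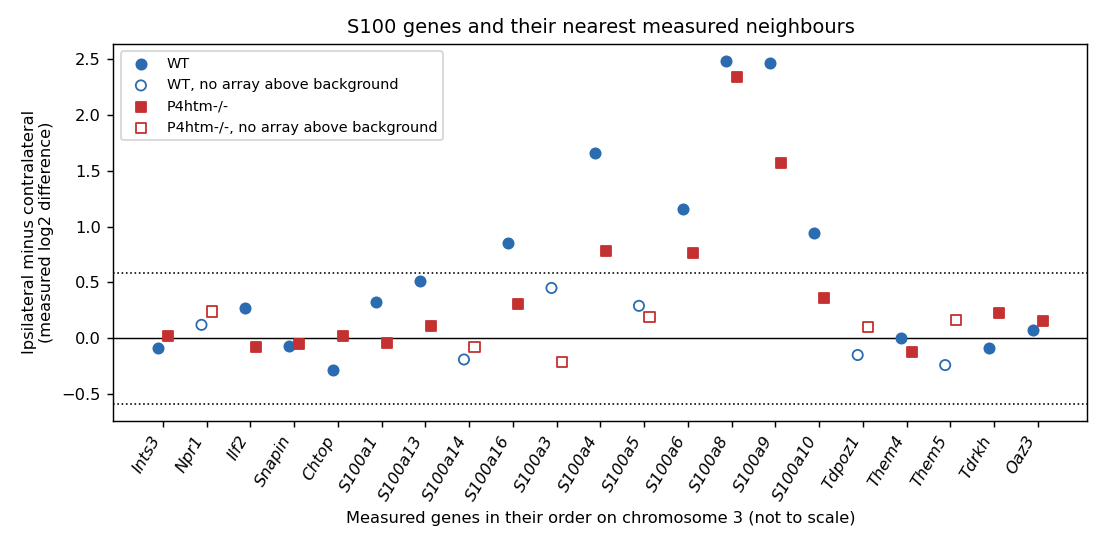
Measured log2 difference between ipsilateral and contralateral cortex (vertical axis) of the measured S100 genes of chromosome 3 and their nearest measured neighbours, in chromosome order (horizontal axis, not to scale), with WT as blue circles and *P4htm*-/- as red squares. Open symbols mark genes without any array above background, and dotted lines mark 1.5-fold. *S100a8* and *S100a9* stand highest, the 10 flanking genes lie between the dotted lines, and 56 coding genes between *S100a9* and *S100a11* are not drawn.

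Over 13405 other genes above background on at least 1 array, those closest to each of the 3 S100 genes with the largest range were found by the distance of their 4 values after each gene was centred on its mean. With 4 arrays such a likeness is loose, and it does not speak of shared control. Closest to *S100a8* were *Serpina3n*, a protease inhibitor of reactive astrocytes, at a distance of 0.396, *Arg1* and *Tgm1*. *Serpina3n* read 6.04, 8.27, 6.25 and 8.39, with the same order of conditions as *S100a8*. Closest to *S100a9* were *Hmox1*, which encodes heme oxygenase 1, at 0.626, *Emp1* and again *Serpina3n*. The distances for *S100a8* and *S100a9* use their WT contralateral values, which were below background. *Arg1* and *Tgm1* were above background on 2 of the 4 arrays and *Emp1* on 3, so their own values below it also enter. Closest to *S100a4* were *Ecrg4* at 0.264, *Tnfrsf12a*, the TWEAK receptor, at 0.274 and *Dpm3* at 0.279. *Tnfrsf12a* read 7.62, 8.93, 7.40 and 8.27.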

How the data were processed

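RNA of both cortex sides of WT and *P4htm*-/- mice was hybridized, with 1 array of 4 pooled mice per condition. The authors deposited log2 values for 45101 probe sets, which the submitters' processing notes assign to RMA and the methods of the study to GenePattern, with tool versions not given in the sources used here. From the values, the log base was inferred to be 2. RMA equalizes the arrays, so a shift shared by all genes is lost, and the values carry 2 decimals. The GEO annotation names 1 gene for 34958 probe sets, several for 932, which were left out, and none for 9211. Symbols of 34754 probe sets were updated by Entrez ID from a RefSeq table. For each gene the probe set of the highest mean over the arrays was used, and 13414 of 18194 genes were above background on any array. The table had 0 unused columns.

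Differences between arrays were computed for 4 comparisons, with no test. The S100 genes and all lists were chosen with earlier results of these data known. Named are all members with every probe set, *P4htm*, up to 3 genes of each other list with large differences plus *Ager*, *Tlr4*, *Anxa1*, *Anxa2*, *Ahnak* and *Cacybp*, and the genes closest in pattern. *Gfap*, *Chtop*, *Ngp*, *Kcnip2*, *Ly96*, *Cd36*, *Hbb-b2*, *Lcn2*, *Elane*, other markers not above background and genes counted in groups of 5 or fewer were named outside this rule, after their values were seen. Alternatives were the mean of probe sets, no detection filter, a background limit at the 99th percentile, 2-fold, median centring, cyclic loess and, chosen after seeing the data, leaving out probe sets that can bind several transcripts. The counting and motif steps were tested on simulated data. Of the 10 genes, 9 had a window in a RefSeq promoter table of GRCm38.p6, with 10 windows, and *S100a10* had none. Software was Python 3.11.15, numpy 2.4.6, pandas 2.3.3 and matplotlib 3.10.9. Cyclic loess was run in R 4.3.3 (limma 3.58.1).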

Additional observations from a re-analysis of the deposited data

Results flagged for a closer look

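Some S100 genes differed in opposite directions in the 2 genotypes or on the 2 sides, and with 1 array per condition none of these differences was tested. The ipsilateral minus contralateral difference of *S100a1* was above 0 in WT and below 0 in *P4htm*-/- mice, and the *P4htm*-/- minus WT difference of the side differences was -0.36 with probe set 1419814_s_at and -0.29 with 1417421_at. *S100b* did so with probe set 1419383_at alone, with -0.27. *S100a10* was above WT in *P4htm*-/- contralateral and below it in *P4htm*-/- ipsilateral cortex, and the ipsilateral minus contralateral difference of the genotype differences was -0.58 with 1456642_x_at and -0.72 with 1416762_at. In each of these 5 cases at least 1 of both differences was smaller than the scatter of the receptor probe sets.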

How the results depend on the processing

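Of 28 counts of S100 genes past 1.5-fold under the alternatives, 25 were within 1.5 times the reported ones. Dropping the detection filter could not change a count, since all 9 genes were detected in each comparison. With 2-fold in place of 1.5-fold the count fell to 2 for *P4htm*-/- ipsilateral minus contralateral and to 0 for *P4htm*-/- minus WT ipsilateral cortex. For WT ipsilateral minus contralateral it fell from 6 to 4, which still counts as within 1.5 times. With background at the 99th percentile of the receptor probe sets, 6.60, the *S100a9* difference in contralateral cortex was no longer counted and the count was 0. With the same limit the count between the sides in *P4htm*-/- mice fell from 4 to 3. Without the probe sets ending in _s_at and _x_at, which can bind several transcripts, *S100a8* could not be measured and 4 genes, now with *S100a10*, were lower in *P4htm*-/- ipsilateral cortex. Of 140 values of single genes, 138 moved by less than the SD of the receptor probe sets and 0 changed sign among those past 1.5-fold. The other 2 were for *S100a10* as the mean of its probe sets, 1 of them below background, at 0.64 between the sides in WT and -0.13 between genotypes in contralateral cortex. Part of the 138 could not move. *S100a4*, *S100a6*, *S100a8*, *S100a9* and *S100a13* have 1 probe set each, so its mean is the same value. Most genes also kept their probe set when those ending in _s_at and _x_at were left out. No paired analysis was possible because each condition has 1 array. Pooling and the single arrays limit all values, and signals near background are compressed.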
